A study of Rattus norvegicus with 9 samples.

Results

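Macrophages and their monocyte precursors carry a characteristic set of transcripts, and 36 such genes were followed here in rat heart by RNA sequencing. The genes were listed by name and found by their symbol in a deposited table of 22601 genes, which held 35 of them. Ccr2, the receptor that draws monocytes to sites of injury, has no row in the table used, so its expression was not analysed here. The 9 libraries came from heart tissue of rats aged 48 weeks, 3 from each of 3 groups. Wistar Kyoto rats (WKY), the normotensive control strain, and spontaneously hypertensive rats (SHR), an inbred strain that becomes hypertensive with age, were given distilled water by mouth for 34 weeks. Allisartan was given to a further group of SHR in distilled water for the same 34 weeks, and these are called treated SHR. The drug belongs to the sartans, which block the main receptor of angiotensin II. In the comparison of SHR with WKY, hypertension and inherited differences between the strains cannot be told apart. No treated WKY group is among the samples, so a drug effect in the normotensive strain cannot be set beside that in SHR. The labels give neither the sex nor the part of the heart, and do not say that each library came from a separate rat, so p-values cover only the differences among these libraries, some of which may be technical.

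Macrophages live in the healthy heart among the muscle fibres, where they clear debris and dying cells, and more arrive as blood monocytes after injury or under pressure overload. Their survival depends on the receptor Csf1r, and their identity is set by transcription factors such as PU.1 (encoded by Spi1) and Irf8. Resident macrophages are known for scavenger receptors such as Cd163, Mrc1, Stab1 and Folr2, whereas macrophages that take up lipid or scar debris are known for Trem2, Gpnmb and Lgals3. In heart tissue sequenced in bulk, fewer cells of a type and less RNA per cell cannot be told apart.

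Levels are FPKM (sequenced fragments corrected for transcript length and library size) after 1 rescaling factor per library. All 35 genes passed the filter on low values, 0.5 FPKM in at least 3 libraries. Differences are log2 differences of the rescaled FPKM plus 0.5, which understates the change of genes of low level, with the standard error (SE) where given. Every adjusted p-value is limma's, two-sided, adjusted by Benjamini-Hochberg over all 11717 genes tested, and a gene was called different when it lay under 0.05. The deposited values carry no read counts, so the depth behind each is unknown and no counting interval is given. The sum over all genes was 359207 to 388172 FPKM per library, and 14279 to 14948 genes were above 0. The marker list of heart muscle cells (11 of 11 tested, Tnni3 and Actc1 among them) summed to 35438 to 46511 FPKM, so heart muscle was present in every library. The 35 macrophage and myeloid genes together gave 193 to 226 FPKM in WKY, 482 to 559 in the SHR group and 286 to 346 in the treated group.

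Macrophage and myeloid transcripts were higher in SHR than in WKY hearts across nearly every functional group. Of the 35 genes, 29 were called higher in SHR and 0 lower, against 11.9% called higher and 9.93% called lower among all genes tested. The 3 SHR libraries lay above the 3 WKY libraries, with no overlap, for 31 of the 35 genes, against 21.9% of all genes. The median log2 difference of the 35 genes was 0.81, beside 0.01 over all genes tested. In treated SHR, 23 of the 35 genes were lower than in SHR and 1, Fcer1g, was higher, against 17.4% called lower and 16.1% called higher among all genes. Here 26 of the 35 genes had no overlap between the lower treated libraries and the SHR libraries, against 24.9% of all genes, and the median log2 difference was -0.67, beside -0.03 over all genes. Both comparisons use the same SHR libraries and are therefore not independent.

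Between treated SHR and WKY, 12 of the 35 genes were called higher (12.9% of all genes) and 2 lower (11.4% of all genes), with a median log2 difference of 0.21 beside -0.01 over all genes. No overlap was seen for 15 genes with the higher values in treated SHR (20.2% of all genes) and for 2 with the lower values there (19.9% of all genes). The count called higher rested on individual libraries: 7 genes were called higher without WKY replicate 1, 6 without WKY replicate 2, 7 without treated replicate 2 and 7 without treated replicate 3. The 2 genes called lower, Lgals3 and F13a1, became 0 without WKY replicate 1, WKY replicate 3 or treated replicate 1, and 1 without WKY replicate 2 or treated replicate 2. Cx3cr1, Fcer1g, Gpnmb, Laptm5, Lyz2 and Tyrobp were the 6 called apart from WKY under every one of the 20 alternative settings tried.

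**Figure D1:**
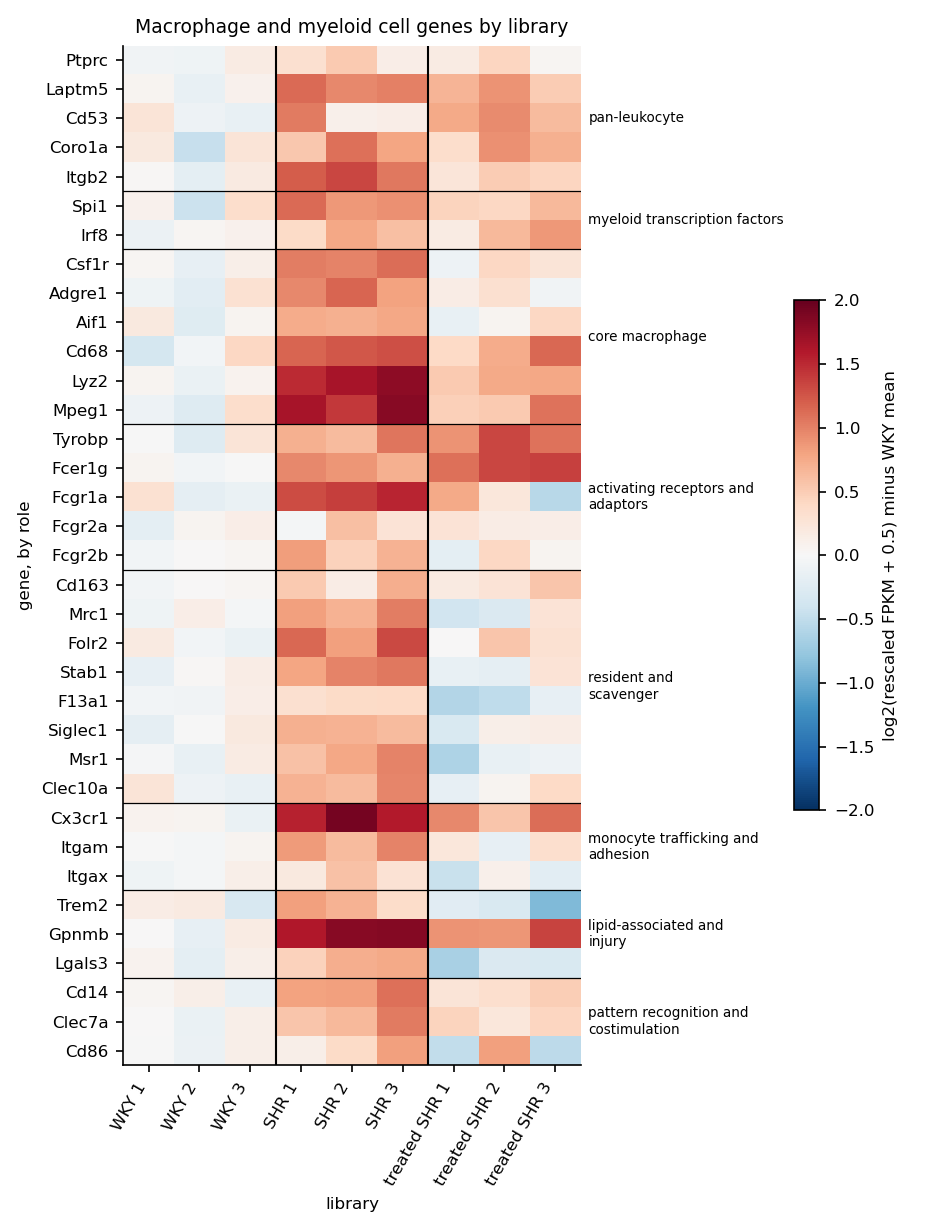
Each row is a gene and each column a library; colour gives the log2 difference of its rescaled FPKM plus 0.5 from the gene's mean over the 3 WKY libraries. The SHR columns are warm for nearly every row, while the treated SHR columns are paler for most rows and stay warm for some, among them Tyrobp, Fcer1g, Gpnmb, Lyz2 and Cx3cr1.

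The 29 raised genes were sorted by what they did in treated SHR. A gene was said to have returned when it was called lower in treated SHR than in SHR and was not called apart from WKY. It was lowered and still raised when it was called lower than SHR and called higher than WKY. It stayed raised when it was not called lower than SHR and was called higher than WKY. By this rule 13 genes returned, 6 were lowered and still raised, 5 stayed raised, 2 (Lgals3 and F13a1) fell below WKY and 3 (Spi1, Cd163 and Clec7a) were undecided, called neither lower than SHR nor apart from WKY. The remaining 6, Ptprc, Cd53, Fcgr2a, Itgax, Trem2 and Cd86, were not called higher in SHR. Of the raised genes 44.8% returned, close to the 47.4% of all 1398 genes called higher in SHR, so return to the WKY level was about as frequent here as in other raised genes. Genes lowered and still raised made up 20.7% of the raised macrophage and myeloid genes and 5.29% of all raised genes, and genes that stayed raised 17.2% and 24.5%. As shares of all genes tested, the classes returned, lowered and still raised, and stayed raised held 5.65%, 0.632% and 2.93%. Treated SHR was called lower than SHR for 21 of the 29 raised genes, against 58.8% of all raised genes.

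Not being called apart from WKY is not the same as being equal to it. For 9 of the 13 returned genes the 95% interval of treated SHR minus WKY lay within 1.5-fold in either direction. Returned genes that kept their class under every alternative setting were Csf1r, Adgre1, Aif1, Fcgr1a, Mrc1, Folr2, Stab1, Msr1, Clec10a and Itgam, 10 of the 13. Lyz2, Cx3cr1 and Gpnmb did so among the genes lowered and still raised, and Tyrobp and Fcer1g among those that stayed raised. Neither gene below WKY did. Single libraries moved the smaller classes. The count was 3 genes that stayed raised without WKY replicate 1, 2 without WKY replicate 2, 2 without treated replicate 2 and 3 without treated replicate 3. Likewise 3 were lowered and still raised without WKY replicate 1 or treated replicate 3.

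**Figure D2:**
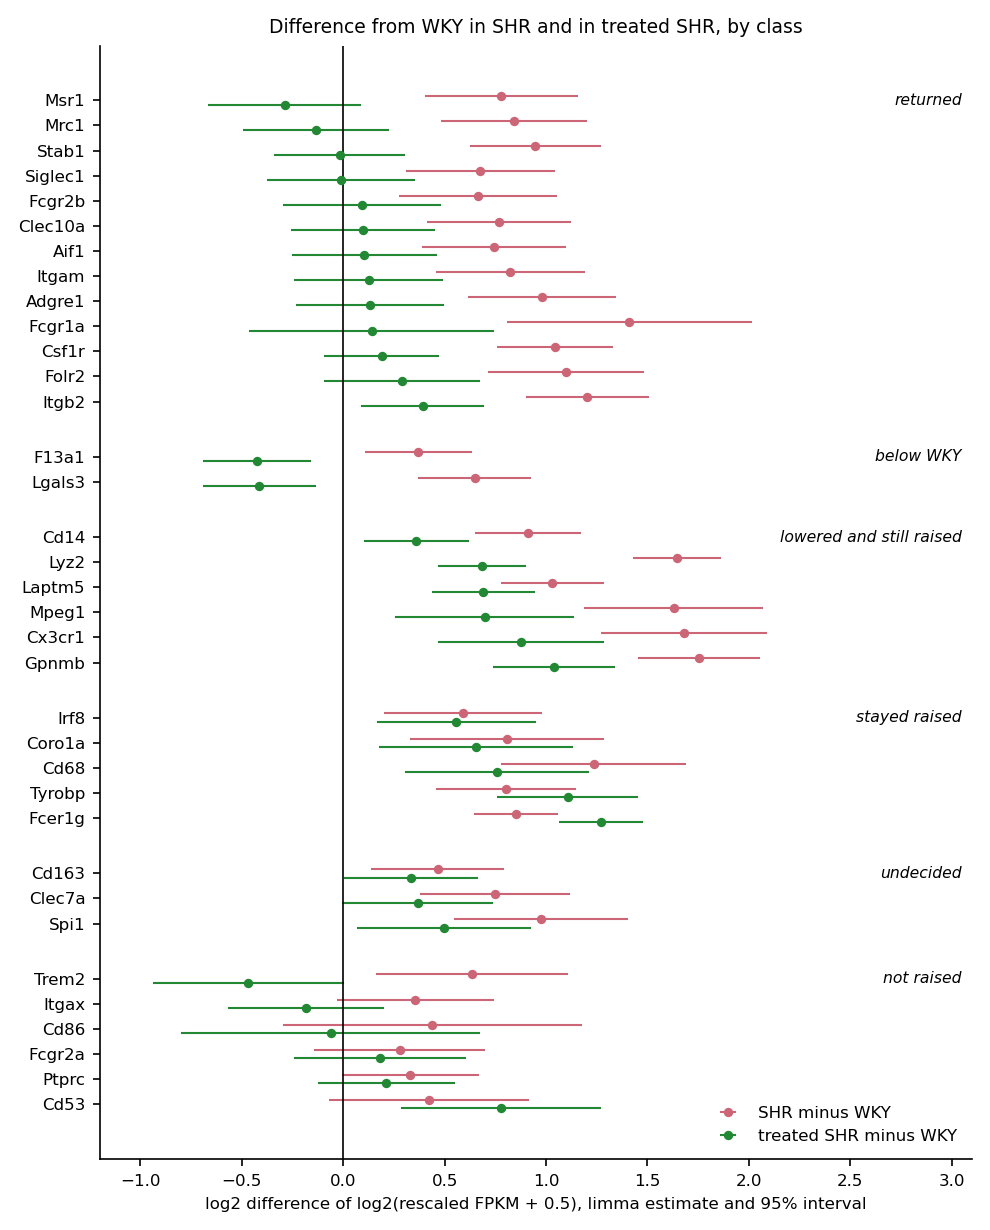
Log2 difference from WKY of SHR and of treated SHR for each of the 35 genes, with 95% intervals from the limma fit, grouped by class. SHR points lie right of 0 for all 35 genes, and treated points lie between -0.29 (Msr1) and 0.39 (Itgb2) in the returned class and right of the SHR points for Tyrobp, Fcer1g and Cd53.

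Core macrophage genes, those used most widely to mark the cell type, were called higher in SHR in 6 of 6 cases and lower in treated SHR in 5 of 6. Among all genes, the base for every role group below, 11.9% were called higher in SHR and 17.4% lower in treated SHR than in SHR. Csf1r, the receptor for the growth factors Csf1 and Il34, measured 6.34, 5.45 and 6.70 FPKM in the WKY libraries, 13.1, 12.7 and 13.8 in SHR and 5.72, 8.31 and 7.45 in treated SHR. Every SHR library stood above every other library, and the treated and WKY libraries overlapped. Csf1r was higher in SHR by a log2 difference of 1.04 (SE 0.129, adjusted p = 0.000359) and lower in treated SHR than in SHR by 0.85 (adjusted p = 0.000735). Treated SHR minus WKY was 0.19 with a 95% interval from -0.09 to 0.47 (adjusted p = 0.315). Lyz2, which encodes the lysozyme of macrophages and is the most abundant of the 35 transcripts, measured 86.8, 76.0 and 88.1 FPKM in WKY, 235, 264 and 290 in SHR and 121, 141 and 143 in treated SHR. The 3 groups did not overlap, with treated SHR between the others. Lyz2 was higher in SHR by 1.64 (SE 0.0977, adjusted p = 3.11e-06), fell by 0.96 under treatment (adjusted p = 8.78e-05) and remained above WKY by 0.68 (adjusted p = 0.000858). Lysozyme genes are duplicated in rodents, and reads shared with a near-identical copy make the Lyz2 level uncertain.

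Mpeg1, which encodes the pore-forming protein perforin-2, measured 1.84, 1.60 and 2.71 FPKM in WKY, 7.38, 6.19 and 8.34 in SHR and 2.98, 3.12 and 4.82 in treated SHR. The 3 groups did not overlap, and the third library was the highest of its group in each. Mpeg1 was higher in SHR by 1.63 (adjusted p = 0.000346), lower in treated SHR than in SHR by 0.93 (adjusted p = 0.00516) and higher in treated SHR than in WKY by 0.70 (adjusted p = 0.0282). The last call was lost without WKY replicate 1, WKY replicate 2 or treated replicate 3 (adjusted p = 0.0831, 0.103 and 0.0857). Cd68, a lysosomal membrane glycoprotein, measured 2.84, 3.58 and 5.17 FPKM in WKY, 9.05, 9.59 and 9.95 in SHR and 5.12, 6.58 and 8.90 in treated SHR. The treated libraries all lay below SHR and spread from the top of the WKY range almost to the SHR range. Cd68 was higher in SHR by 1.24 (adjusted p = 0.00215) and higher in treated SHR than in WKY by 0.76 (adjusted p = 0.023). The treated minus SHR difference of -0.48 did not pass the test (adjusted p = 0.0993), so Cd68 was classed as staying raised. Without treated replicate 3 Cd68 was called lower than in SHR (adjusted p = 0.0293). Its call above WKY ended without WKY replicate 1, WKY replicate 2, treated replicate 2 or treated replicate 3 (adjusted p = 0.0547 to 0.0804). Adgre1, an adhesion-type receptor of mature macrophages, and Aif1, which encodes an actin-binding protein, both returned. Adgre1 had means of 1.72 ± 0.422 (SD, n = 3) FPKM in WKY, 3.84 ± 0.552 in SHR and 1.92 ± 0.323 in treated SHR. Aif1 had means of 1.67 ± 0.319, 3.11 ± 0.0897 and 1.85 ± 0.463. In both genes every SHR library exceeded every library of the other groups.

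The promoters of genes in 3 different classes are shown because many macrophage genes are known targets of PU.1, which binds a purine-rich core, and of composite sites at which PU.1 and an interferon regulatory factor bind together. Sequences are from RefSeq (build GRCr8), 250 bases before to 50 bases after the gene's start, written 5′ to 3′ on the strand of the gene. Of the 36 genes, 25 were matched, among them Ccr2, which has no expression value and no class here. Capitals mark the letters GAGGAA (PU.1 core) and GGAANNGAAA (composite), searched on both strands, so that a match on the other strand appears as TTCCTC or as the reverse complement of the composite. Csf1r, which returned, lies at chr18:56834129-56834428 on the plus strand. Lyz2 and Gpnmb, lowered and still raised, lie at chr7:54797962-54798261 on the minus strand and chr4:79340878-79341177 on the plus strand. Cd68, which stayed raised, lies at chr10:54882392-54882691 on the minus strand.
Csf1r: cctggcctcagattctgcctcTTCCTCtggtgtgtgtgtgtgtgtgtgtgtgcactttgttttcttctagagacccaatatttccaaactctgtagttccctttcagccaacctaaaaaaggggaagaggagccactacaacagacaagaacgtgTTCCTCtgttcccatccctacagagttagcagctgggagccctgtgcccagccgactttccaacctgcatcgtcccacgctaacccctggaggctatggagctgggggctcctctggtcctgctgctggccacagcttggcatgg
Lyz2: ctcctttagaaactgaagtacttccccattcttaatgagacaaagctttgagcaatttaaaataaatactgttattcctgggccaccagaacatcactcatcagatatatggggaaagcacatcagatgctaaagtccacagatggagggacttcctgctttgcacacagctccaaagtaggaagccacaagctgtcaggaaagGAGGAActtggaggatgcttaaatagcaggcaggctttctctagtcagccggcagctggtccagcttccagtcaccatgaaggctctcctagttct
Gpnmb: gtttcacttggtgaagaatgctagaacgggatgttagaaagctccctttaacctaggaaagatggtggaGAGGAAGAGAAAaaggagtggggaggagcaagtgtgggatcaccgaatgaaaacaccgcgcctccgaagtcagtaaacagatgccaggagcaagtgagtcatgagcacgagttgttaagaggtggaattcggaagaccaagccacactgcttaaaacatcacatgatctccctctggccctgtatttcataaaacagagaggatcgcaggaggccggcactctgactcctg
Cd68: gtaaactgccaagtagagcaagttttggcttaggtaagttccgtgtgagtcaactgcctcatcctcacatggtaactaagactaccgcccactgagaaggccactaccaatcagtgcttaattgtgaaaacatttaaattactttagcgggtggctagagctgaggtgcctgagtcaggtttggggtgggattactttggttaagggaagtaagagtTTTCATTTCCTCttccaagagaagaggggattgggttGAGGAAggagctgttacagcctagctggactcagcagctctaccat

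Csf1r held 2 PU.1 cores, Lyz2 1, Gpnmb 1 and Cd68 2, and the composite occurred in Gpnmb and Cd68, overlapping a core in each. A PU.1 core was found in 16 of the 25 promoters (64%), against 27.6% of 33469 rat promoters of the same length, and a composite in 3 of 25 (12%; Cd68, Gpnmb and Clec7a), against 2.94%. The shares differ in unit, since 1 promoter per gene was taken for the 25 and every promoter entry was counted for the rat shares. Such a match describes letters in this window and is not evidence of binding. By class, a core was found in 5 of 6 matched genes that returned and in 4 of 6 lowered and still raised. Of the matched genes that stayed raised, 1 of 3 held it (Cd68, not Coro1a or Irf8). Tyrobp and Fcer1g, which kept that class under every alternative setting, had no matched promoter. A core was also found in 5 of 6 not raised in SHR, in 1 of 1 below WKY and in 0 of 2 undecided. Among matched genes, those not raised in SHR thus held a core as often as those that returned, but only 6 of the 13 returned genes were matched.

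Of the transcription factors that define the lineage, both were called higher in SHR and neither was called lower in treated SHR. Spi1 measured 0.719, 0.353 and 0.959 FPKM in WKY, 2.03, 1.60 and 1.67 in SHR and 1.06, 1.03 and 1.29 in treated SHR. The groups did not overlap and treated SHR stood between the others. The log2 differences of Spi1 were 0.97 for SHR minus WKY (adjusted p = 0.0054), -0.48 for treated SHR minus SHR (adjusted p = 0.0832) and 0.50 for treated SHR minus WKY (adjusted p = 0.0877). The second was called without WKY replicate 2 (adjusted p = 0.0364) and the third without WKY replicate 3 (adjusted p = 0.038). Irf8, needed for monocyte and dendritic cell development, measured 1.84, 2.11 and 2.18 FPKM in WKY, 2.82, 3.83 and 3.37 in SHR and 2.33, 3.48 and 4.13 in treated SHR. Every SHR and treated library exceeded every WKY library, and the treated libraries spread across the SHR range and beyond it on both sides. Irf8 was higher than in WKY by 0.59 in SHR (adjusted p = 0.0365) and by 0.56 in treated SHR (adjusted p = 0.0426), both close to the threshold. The Irf8 call for SHR ended without any one of the 3 WKY libraries or SHR replicate 2 or 3 (adjusted p = 0.0627 to 0.121). That for treated SHR ended without any one of the WKY libraries, SHR replicate 3 or treated replicate 2 or 3 (adjusted p = 0.0575 to 0.134).

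Of the activating receptors and their adaptors, 4 of 5 were called higher in SHR, and in treated SHR 2 were called lower and 1 higher than in SHR. Fcer1g, the common gamma chain through which Fc receptors signal, measured 13.8, 12.7 and 13.2 FPKM in WKY, 26.1, 24.9 and 22.0 in SHR and 29.1, 34.1 and 35.1 in treated SHR. The 3 groups did not overlap and treated SHR was the highest. Fcer1g was higher in SHR by 0.85 (SE 0.0932, adjusted p = 0.000185), rose by a further 0.42 in treated SHR (adjusted p = 0.00628) and stood 1.27 above WKY there (adjusted p = 1.71e-05). Tyrobp, which encodes the adaptor DAP12 used by Trem2 and other myeloid receptors, measured 13.2, 11.1 and 15.9 FPKM in WKY, 22.0, 20.8 and 28.3 in SHR and 25.2, 34.2 and 28.6 in treated SHR. Every SHR and treated library lay above every WKY library, and SHR replicate 3 lay within the treated range. Tyrobp was higher in SHR by 0.80 (adjusted p = 0.00495) and in treated SHR by 1.11 (adjusted p = 0.000826) than in WKY. Treated SHR minus SHR was 0.30 with a 95% interval from -0.04 to 0.65 (adjusted p = 0.16).

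Fcgr1a, the high-affinity receptor for IgG that signals through Fcer1g, fell where Fcer1g rose. It measured 2.05, 1.32 and 1.38 FPKM in WKY, 4.61, 4.89 and 5.44 in SHR and 2.98, 1.91 and 0.896 in treated SHR. The SHR libraries stood well above all others, and the treated libraries spread widely, to both sides of the WKY range. Fcgr1a was higher in SHR by 1.41 (adjusted p = 0.00474) and lower in treated SHR than in SHR by 1.27 (adjusted p = 0.00536). Treated SHR minus WKY was 0.14 with a wide 95% interval from -0.46 to 0.74. Fcgr2b, the inhibitory IgG receptor, had means of 0.75 ± 0.0381 (SD, n = 3) FPKM in WKY, 1.49 ± 0.249 in SHR and 0.853 ± 0.296 in treated SHR. It was called higher in SHR (0.66, adjusted p = 0.0215) and lower in treated SHR than in SHR (-0.57, adjusted p = 0.0294). The Fcgr2b call for SHR ended without WKY replicate 1 or 2 or SHR replicate 1 or 3 (adjusted p = 0.0585 to 0.0691). That for treated SHR ended without SHR replicate 1 or 3 or treated replicate 1 or 3 (adjusted p = 0.0664 to 0.0977). Fcgr2a, an activating IgG receptor, measured 0.252, 0.390 and 0.444 FPKM in WKY, 0.334, 0.802 and 0.539 in SHR and 0.533, 0.453 and 0.438 in treated SHR. Its 3 groups overlapped and no Fcgr2a difference passed the test (adjusted p = 0.334, 0.729 and 0.528). Fcgr2a and Fcgr2b resemble each other closely in sequence, so reads may be split between them and their levels are uncertain.

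Ratios within a library restate the differences above on another scale and add no independent support. The ratio of Fcer1g to Csf1r was 2.17, 2.34 and 1.97 in WKY, 2.0, 1.96 and 1.59 in SHR and 5.08, 4.10 and 4.71 in treated SHR. That of Tyrobp to Csf1r was 2.08, 2.03 and 2.38, then 1.68, 1.63 and 2.04, then 4.41, 4.12 and 3.84. All 3 treated libraries exceeded all other libraries in both ratios, with log2 differences from SHR of 1.33 and 1.21. The ratio of Gpnmb to Csf1r was 1.49, 1.54 and 1.59 in WKY, 2.27, 2.72 and 2.54 in SHR and 3.14, 2.14 and 3.34 in treated SHR. That of Lyz2 to Csf1r was 13.7, 13.9 and 13.1, then 18.0, 20.7 and 21.0, then 21.1, 17 and 19.2. These ratios were higher in every SHR than in every WKY library and overlapped between SHR and treated SHR. A two-sided exact permutation test gave p = 0.1 where 2 groups did not overlap, the smallest it can give for 3 against 3 libraries. By the same exact permutation test, SHR against WKY had p = 0.2 in the Fcer1g ratio and in the Tyrobp ratio. For treated SHR against SHR the exact permutation test gave p = 0.5 in the Gpnmb ratio and p = 0.7 in the Lyz2 ratio. The 4 ratios were chosen after the values had been seen, and separated groups always give the smallest value. This test therefore only restates whether the groups overlapped, and no conclusion is drawn from it. A ratio shows unequal change only.

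**Figure D3:**
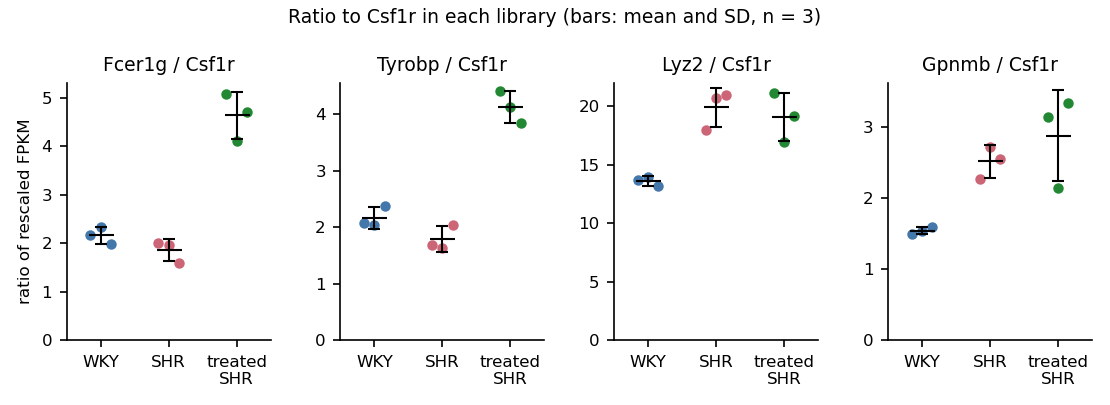
Ratio of the rescaled FPKM of 4 genes to that of Csf1r in each library (points), with the group mean and SD (bars, n = 3), each axis starting at 0. The Fcer1g and Tyrobp ratios of treated SHR, 3.84 to 5.08, stand apart from WKY and SHR, and the Lyz2 and Gpnmb ratios are higher in SHR and treated SHR than in WKY.

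Resident and scavenger genes were called higher in SHR in 8 of 8 cases and lower in treated SHR than in SHR in 7 of 8. None of the 8 was called above WKY after treatment, where 12.9% of all genes were called higher, so this count is near that share. Clec10a, a lectin that binds galactose-type sugars, measured 6.51, 5.0 and 4.79 FPKM in WKY, 8.98, 8.62 and 11.1 in SHR and 4.77, 5.61 and 7.21 in treated SHR. Mrc1, the mannose receptor, measured 4.78, 5.65 and 4.94 FPKM in WKY, 9.43, 8.54 and 10.8 in SHR and 3.79, 4.10 and 6.25 in treated SHR. In both genes the SHR libraries stood alone and the treated libraries overlapped WKY. Clec10a was higher in SHR by 0.77 (adjusted p = 0.00714) and then lower by 0.67 (adjusted p = 0.00923), and Mrc1 was higher by 0.84 (adjusted p = 0.00468) and then lower by 0.98 (adjusted p = 0.00133). Stab1, which takes up modified lipoproteins and matrix fragments, had means of 3.06 ± 0.384 (SD, n = 3) FPKM in WKY, 6.35 ± 0.67 in SHR and 3.04 ± 0.655 in treated SHR. Its treated SHR minus WKY difference was -0.02, with a 95% interval from -0.34 to 0.31. Folr2, a folate receptor, Siglec1, a receptor for sialic acids, and Msr1, the class A scavenger receptor, also returned, with treated SHR minus SHR differences of -0.81, -0.69 and -1.07 (adjusted p = 0.00533, 0.0095 and 0.00106). Without WKY replicate 1 Siglec1 was not called higher in SHR (adjusted p = 0.0591).

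F13a1, the A subunit of coagulation factor XIII and a marker of resident macrophages, measured 5.42, 5.32 and 6.19 FPKM in WKY, 7.17, 7.52 and 7.60 in SHR and 3.57, 3.79 and 4.96 in treated SHR. The groups did not overlap, and treated SHR was the lowest. F13a1 was lower in treated SHR than in SHR by 0.80 (adjusted p = 0.00075), whereas its rise in SHR (0.37, adjusted p = 0.0496) and its fall below WKY (-0.42, adjusted p = 0.027) were near the threshold. The rise of F13a1 was not called without any one of the WKY or SHR libraries or treated replicate 2 (adjusted p = 0.0522 to 0.142). Its fall below WKY was not called without any one of the WKY libraries or treated replicate 1 or 2 (adjusted p = 0.0506 to 0.0914). Cd163, the receptor that clears haemoglobin bound to haptoglobin, had means of 4.40 ± 0.143 (SD, n = 3) FPKM in WKY, 6.36 ± 1.35 in SHR and 5.71 ± 0.857 in treated SHR. It was the only resident and scavenger gene not called lower in treated SHR (-0.13, adjusted p = 0.529). The Cd163 rise in SHR (0.47, adjusted p = 0.047) was not called without any one of the WKY libraries, SHR replicate 1 or 3 or treated replicate 2 (adjusted p = 0.0591 to 0.17).

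Among the genes of monocyte trafficking and adhesion, 2 of 3 were called higher in SHR and all 3 lower in treated SHR. Cx3cr1, the receptor for the chemokine fractalkine and a marker of patrolling monocytes and some tissue macrophages, measured 0.188, 0.180 and 0.0951 FPKM in WKY, 1.40, 1.96 and 1.46 in SHR and 0.771, 0.457 and 0.914 in treated SHR. Its 3 groups did not overlap, and treated SHR stood between the others. The Cx3cr1 differences were 1.68 in SHR over WKY (adjusted p = 0.000192), -0.80 in treated SHR over SHR (adjusted p = 0.00755) and 0.88 in treated SHR over WKY (adjusted p = 0.00722). Itgam, the alpha chain CD11b of an integrin that binds complement, measured 0.660, 0.634 and 0.719 FPKM in WKY, 1.60, 1.32 and 1.82 in SHR and 0.863, 0.539 and 0.973 in treated SHR. Only SHR stood apart for Itgam, which was higher there by 0.82 (adjusted p = 0.00588) and lower in treated SHR by 0.70 (adjusted p = 0.00911). Itgax, the alpha chain CD11c found on dendritic cells and some macrophages, measured 0.911, 0.971 and 1.14 FPKM in WKY, 1.21, 1.76 and 1.33 in SHR and 0.605, 1.12 and 0.796 in treated SHR. The SHR libraries lay above both other groups, but only the treated minus SHR difference of Itgax passed the test (-0.54, adjusted p = 0.0367; SHR minus WKY 0.35, adjusted p = 0.175). That Itgax call ended without WKY replicate 2, SHR replicate 2 or 3 or treated replicate 1 or 3 (adjusted p = 0.0511 to 0.136).

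The lipid-associated and injury genes were all called lower in treated SHR than in SHR, but they ended at different levels relative to WKY. Gpnmb, a membrane glycoprotein of phagocytes loaded with lipid or debris, measured 9.45, 8.37 and 10.6 FPKM in WKY, 29.6, 34.6 and 35.2 in SHR and 17.9, 17.8 and 24.9 in treated SHR. Gpnmb was higher in SHR by 1.75 (SE 0.136, adjusted p = 2.28e-05), and after a fall of 0.71 (adjusted p = 0.00289) remained 1.04 above WKY (adjusted p = 0.000537), with no overlap between groups. Lgals3, which encodes galectin-3, a lectin secreted by macrophages and fibroblasts, measured 21.6, 17.8 and 22.3 FPKM in WKY, 28.3, 34.2 and 34.9 in SHR and 12.8, 16.7 and 16.4 in treated SHR. Here the order of the groups differed from Gpnmb, with every treated library below every WKY library. Lgals3 was higher in SHR by 0.65 (adjusted p = 0.00486), lower in treated SHR than in SHR by 1.06 (adjusted p = 0.000203) and lower than in WKY by 0.41 (adjusted p = 0.0363). The call below WKY ended without WKY replicate 1, WKY replicate 3 or treated replicate 1 (adjusted p = 0.104, 0.113 and 0.114). Trem2, a receptor for lipids that signals through the adaptor encoded by Tyrobp, measured 1.44, 1.47 and 0.900 FPKM in WKY, 2.60, 2.35 and 1.76 in SHR and 0.999, 0.921 and 0.448 in treated SHR. All SHR libraries of Trem2 lay above the other groups, and the treated libraries reached below the WKY range. Trem2 was lower in treated SHR than in SHR by 1.10 (adjusted p = 0.00314), while its SHR minus WKY difference of 0.63 missed the threshold (adjusted p = 0.0567). It passed under 5 of the 20 alternatives, without treated replicate 3 (adjusted p = 0.0297), without rescaling (0.0407), with a pseudocount of 1 (0.0439), with only the 6 libraries of the contrast (0.0375) and with the replicate block (0.01). The block also put Trem2 below WKY in treated SHR (-0.47, adjusted p = 0.0324).

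**Figure D4:**
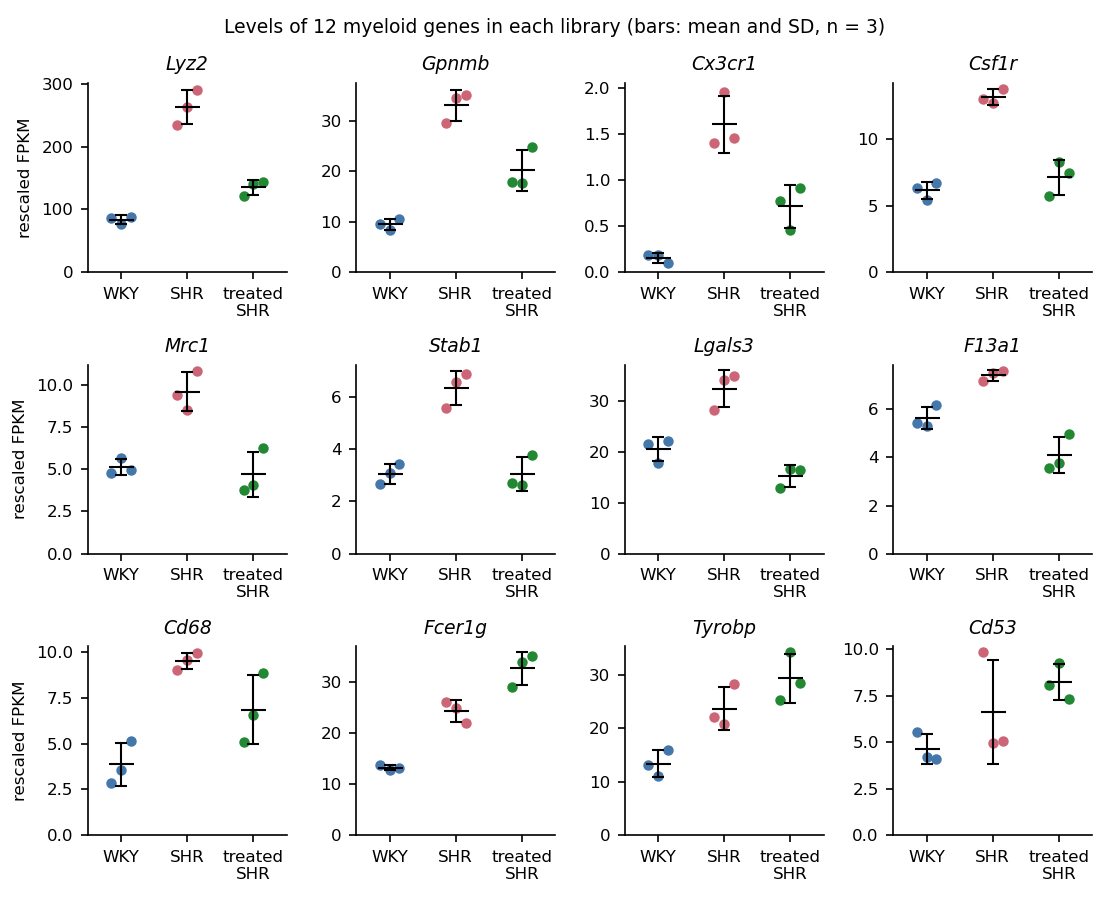
Rescaled FPKM of selected genes in each library (points) with the group mean and SD (bars, n = 3), each axis starting at 0. Csf1r, Mrc1 and Stab1 peak in SHR alone, Lyz2 and Gpnmb keep part of their rise in treated SHR, and Fcer1g is highest in treated SHR.

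Of the pattern recognition and costimulation genes, Cd14 and Clec7a were called higher in SHR and Cd14 alone was called lower in treated SHR. Cd14, the co-receptor for bacterial lipopolysaccharide, measured 3.42, 3.64 and 2.97 FPKM in WKY, 6.23, 6.31 and 7.69 in SHR and 4.09, 4.32 and 4.90 in treated SHR. Its groups did not overlap, and treated SHR lay closer to WKY than to SHR. Cd14 was higher in SHR by 0.91 (adjusted p = 0.000499) and lower in treated SHR than in SHR by 0.55 (adjusted p = 0.00522). Its remaining difference of 0.36 over WKY (adjusted p = 0.0477) was lost without any single library except SHR replicate 3 (adjusted p = 0.0543 to 0.148). Clec7a, which encodes the fungal glucan receptor dectin-1, measured 0.448, 0.360 and 0.518 FPKM in WKY, 0.883, 0.980 and 1.43 in SHR and 0.783, 0.600 and 0.762 in treated SHR. Treated SHR lay between the other groups without overlap, yet only the rise of Clec7a in SHR passed the test (0.75, adjusted p = 0.00991). Cd86, which gives T cells their second activating signal, measured 0.309, 0.247 and 0.380 FPKM in WKY, 0.377, 0.558 and 0.930 in SHR and 0.0786, 0.929 and 0.0646 in treated SHR. One treated library was about as high as the highest SHR library and the others were near 0, and no Cd86 difference passed the test (adjusted p = 0.384, 0.272 and 0.912). Without treated replicate 2 it was called lower in treated SHR than in SHR (adjusted p = 0.0156).

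The genes shared by all white blood cells did not move as one: 3 of 5 were called higher in SHR and 2 lower in treated SHR. Laptm5, a lysosomal membrane protein of blood cells, measured 5.72, 4.85 and 5.85 FPKM in WKY, 12.5, 11.1 and 11.4 in SHR and 9.0, 10.6 and 7.96 in treated SHR. The groups did not overlap, and treated SHR lay nearer to SHR than to WKY. Laptm5 was higher in SHR by 1.03 (SE 0.115, adjusted p = 0.000202) and in treated SHR by 0.69 (adjusted p = 0.00203) than in WKY. Its fall of 0.34 under treatment (adjusted p = 0.0432) was not called without any one of the SHR libraries, WKY replicate 1 or 3 or treated replicate 1 or 3 (adjusted p = 0.0512 to 0.136). Itgb2, the beta chain shared by the leukocyte integrins, had means of 1.64 ± 0.282 (SD, n = 3) FPKM in WKY, 4.41 ± 0.48 in SHR and 2.30 ± 0.267 in treated SHR. Itgb2 was higher in SHR by 1.2 (adjusted p = 0.000229) and lower in treated SHR than in SHR by 0.81 (adjusted p = 0.00142). Although it was classed as returned, all treated libraries exceeded all WKY libraries, and without WKY replicate 3 it was called above WKY (adjusted p = 0.0477).

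Coro1a, an actin-binding protein of leukocytes, measured 2.94, 1.69 and 3.09 FPKM in WKY, 3.86, 5.91 and 4.67 in SHR and 3.33, 5.13 and 4.39 in treated SHR. Both SHR groups lay above WKY and overlapped each other. Coro1a was higher than in WKY by 0.81 in SHR (adjusted p = 0.0226) and by 0.65 in treated SHR (adjusted p = 0.0493). The first call ended when WKY replicate 2, SHR replicate 2 or SHR replicate 3 was left out (adjusted p = 0.0629 to 0.0847) and the second without WKY replicate 1 or 2, SHR replicate 3 or treated replicate 2 or 3 (adjusted p = 0.0612 to 0.167). Cd53, a tetraspanin of leukocytes, measured 5.54, 4.22 and 4.08 FPKM in WKY, 9.88, 4.95 and 5.05 in SHR and 8.07, 9.28 and 7.34 in treated SHR. SHR replicate 1 stood far above the other SHR libraries, which lay within the WKY range, and every treated library was above every WKY library. Cd53 was called higher in treated SHR than in WKY (0.78, adjusted p = 0.0291), a call that ended without WKY replicate 2 or 3 or treated replicate 1 or 2 (adjusted p = 0.0627 to 0.0913). Without SHR replicate 1 it was also called higher in treated SHR than in SHR (adjusted p = 0.00814). Ptprc, which encodes the pan-leukocyte antigen CD45, measured 1.41, 1.39 and 1.76 FPKM in WKY, 2.02, 2.40 and 1.71 in SHR and 1.75, 2.21 and 1.57 in treated SHR. Its groups overlapped, and no Ptprc difference passed the test (0.33, -0.12 and 0.21; adjusted p = 0.15, 0.587 and 0.346).

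Other genes of the same cells were counted from lists of known function or cell type. The shares of all genes beside these and the marker lists are again 11.9% called higher and 9.93% called lower in SHR than in WKY. Between treated SHR and SHR they are 17.4% called lower and 16.1% called higher in treated SHR. Of the growth factors and attractants of macrophages and monocytes, 10 of 13 were tested, 6 were higher in SHR and 4 lower in treated SHR, and Csf2 and Csf3 were listed at 0 in every library. Ccl7 and Ccl2, which attract monocytes, had means of 0.934 ± 0.281 and 4.01 ± 1.61 (SD, n = 3) FPKM in WKY, 6.24 ± 0.866 and 13.6 ± 1.65 in SHR and 1.49 ± 0.5 and 4.25 ± 2.14 in treated SHR, and both returned. Cx3cl1, the fractalkine that Cx3cr1 binds, had means of 6.94 ± 0.866, 14.2 ± 1.18 and 9.16 ± 2.39 FPKM and also returned, with treated SHR minus WKY at 0.35 (adjusted p = 0.149). Ccl3, another monocyte attractant, was listed at 0 in all WKY libraries and measured 0.386 to 0.902 FPKM in SHR and 0.301 to 0.748 in treated SHR. Of the secreted and effector genes 15 of 22 were tested; 11 were higher and 1 lower in SHR, and 10 were lower in treated SHR. The 11 raised genes of this list divided into 4 that returned, 5 lowered and still raised and 2 that stayed raised. The gene called lower in SHR was Ncf1 (-0.85, adjusted p = 0.000164). C1qa, C1qb and C1qc, the chains of complement C1q that macrophages make, and Ctsb, a lysosomal protease, were all lowered and still raised. C1qb had means of 19.7 ± 1.12 FPKM in WKY, 46.8 ± 4.41 in SHR and 28.7 ± 2.21 in treated SHR.

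Of 40 other myeloid genes, 33 were tested: 22 were higher in SHR and 0 lower, and 10 were lower in treated SHR. The 22 raised genes divided into 7 that returned, 3 lowered and still raised, 9 that stayed raised and 3 undecided. Vsig4, a complement receptor of resident macrophages, had means of 0.390 ± 0.209 (SD, n = 3) FPKM in WKY, 2.35 ± 0.469 in SHR and 2.15 ± 0.396 in treated SHR, with a treated SHR minus SHR difference of -0.10 (adjusted p = 0.744). Pld4 and Slc11a1, a lysosomal nuclease and a metal transporter of phagosomes, were lowered and still raised. MHC class II genes, which present antigen, split by gene. RT1-Ba and RT1-Bb were lower in SHR than in WKY by 1.99 and 1.22 (adjusted p = 0.000674 and 0.00072). RT1-Da and RT1-Db1 were higher by 0.98 and 1.59 (adjusted p = 0.000909 and 0.00802). MHC genes differ in sequence between rat strains, and how far reads of each strain map to the reference was not tested.

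Some markers of other cells moved with these differences and others did not, and their part in the results was not tested. Fibroblast markers (10 of 10 tested) had summed FPKM of 432 to 481 in WKY libraries, of 781 to 831 in SHR libraries and of 462 to 522 in treated libraries. In this list 7 were higher in SHR and 8 lower in treated SHR. Heart muscle markers summed to 38981 to 41459, 35438 to 36884 and 44709 to 46511 FPKM in the same order. This sum was lowest in SHR and highest in treated SHR, but the 11 genes split. In SHR 2 were called higher and 3 lower than in WKY, and in treated SHR 6 were called higher and 3 lower than in SHR. Smooth muscle and pericyte markers (5 of 9 higher in SHR) summed to 233 to 300, 346 to 368 and 297 to 379 FPKM. Endothelial markers, none of 10 called in SHR against WKY, summed to 171 to 194, 177 to 184 and 173 to 191. Among blood cells, B cell markers were all under the filter and summed to 0.135 to 1.05 FPKM per library. T and NK cell markers had 5 of 13 tested and Cd4 alone called higher in SHR (3.59 ± 0.207, 9.12 ± 0.573 and 4.65 ± 0.884 FPKM; SD, n = 3), a gene that rat macrophages also express. The defining T cell genes Cd3d and Cd3e were under the filter. Neutrophil markers, 3 of 10 tested, had summed FPKM of 13 to 19 in WKY libraries, of 11.4 to 16.5 in SHR libraries and of 21.6 to 35.7 in treated libraries, where S100a8 and S100a9 were called higher than in SHR (1.63 and 1.32, adjusted p = 0.000314 and 0.00548). Mpo was listed at 0 in all libraries and Elane and Mmp8 were under the filter. Fcer1g is also expressed by neutrophils, mast cells and platelets. Mast cell markers (3 of 9 tested) summed to 5.10 to 6.99, 6.67 to 10.5 and 10.4 to 12.0 FPKM. Kit was called higher in SHR and Tpsb2 higher in treated SHR than in SHR. Platelet markers (2 of 6 tested) summed to 3.49 to 8.34, 13.3 to 16.5 and 5.25 to 10.3, with Pf4 called higher in SHR and lower in treated SHR than in SHR. Ppbp, the other marker tested, moved the opposite way and was not called. It differed by -0.61 between SHR and WKY (adjusted p = 0.409) and rose by 0.87 under treatment (adjusted p = 0.195). Pf4 made up most of each sum, so the sums describe that gene rather than platelet markers as a set. Erythroid markers summed to 73.7 to 131, 40.3 to 83.1 and 87.5 to 269 FPKM, with 3 of 5 tested called higher and 1 lower in treated SHR than in SHR.

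**Figure D5:**
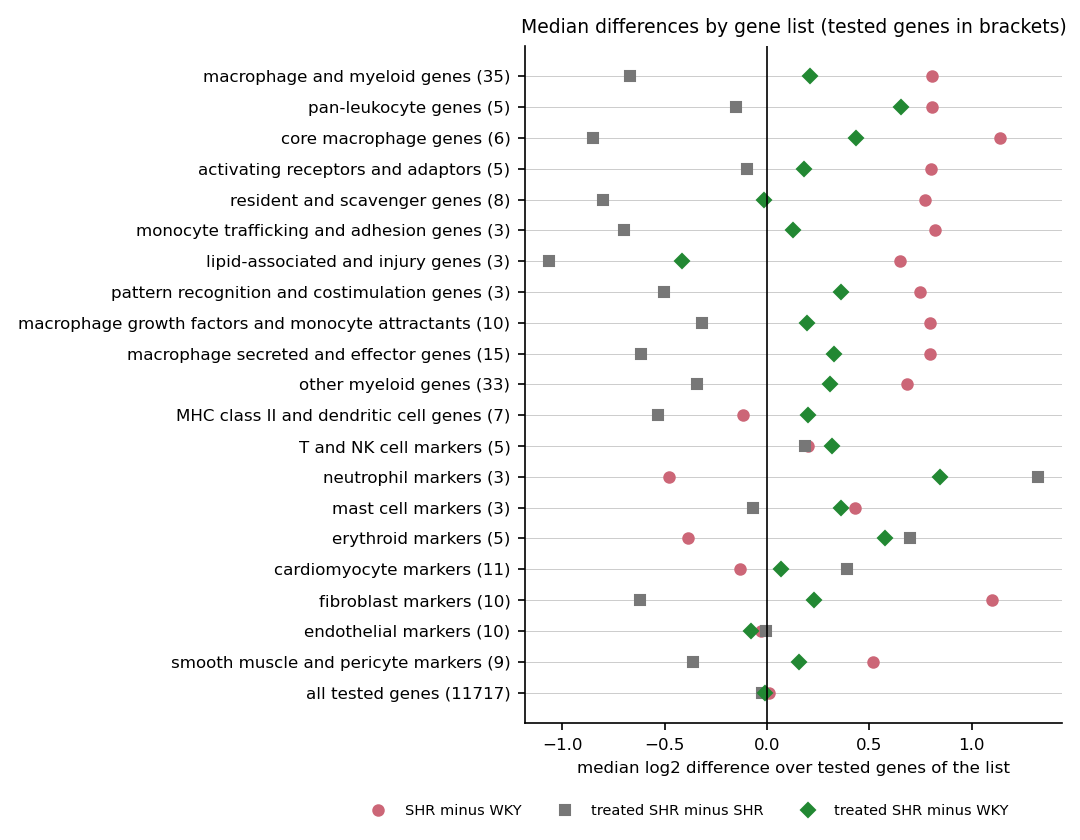
Median log2 difference over the tested genes of each list, for the 3 comparisons; the number of tested genes is in brackets. The macrophage and myeloid genes (0.81, -0.67 and 0.21) and the fibroblast markers lie right of 0 for SHR minus WKY and left of 0 for treated SHR minus SHR, and the neutrophil markers lie right of 0 for treated SHR minus SHR.

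Within each group the libraries differed in the same sense for many genes. WKY replicate 3 was the highest WKY library for 25 of the 35 genes and WKY replicate 2 the lowest for 20. SHR replicate 3 was the highest for 20, and treated replicate 3 the highest for 18 and treated replicate 1 the lowest for 21. Across the 35 genes the Spearman correlation of the log2 difference with genomic span was -0.30 for SHR minus WKY, -0.11 for treated SHR minus SHR and -0.39 for treated SHR minus WKY, a description over genes that share libraries. Over all genes it was 0.01, -0.06 and -0.07. The median span was 4.86 kb for genes that stayed raised, 11.6 kb for those lowered and still raised and 26.7 kb for those that returned. With the trend on span removed, an alternative chosen after seeing the data, 27 genes were higher in SHR, 22 lower in treated SHR and 5 stayed raised. In the GRCr8 annotation Stab1 overlaps Nt5dc2, F13a1 overlaps Tpi1l2 and 11 further genes overlap non-coding genes or pseudogenes. Whether the counting used strand is not given, so reads of overlapping genes may be shared.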

How the data were processed

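Heart RNA was measured in 9 libraries, 3 per group, and samples were grouped by their titles. Per the labels' protocols, extraction used the mirVana kit and library building a stranded TruSeq mRNA kit. Per the submitters' processing notes, the build was Rnor_6.0 and the tools were DESeq, HTSeq, Cufflinks, HISAT2 and Trimmomatic. Their versions and roles, and whether counting used strand, are not given in the sources used. The table deposited by the authors gives FPKM per gene and library, which scales fragments by transcript length and library total, so a few very abundant muscle transcripts can shift all other values. Low values showed no clean whole-read steps, so reads were not recovered and depth is unknown.

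Each library was divided by a median-of-ratios factor (0.965 to 1.04, from the 9194 genes that reached 1 FPKM in each of the 9 libraries). The filter kept genes that reached 0.5 FPKM in 3 libraries or more (11717 of 22601), then 0.5 was added and log2 taken. limma 3.58.1 in R 4.3.3 fitted 1 mean per group with a variance trend (6 residual degrees of freedom), and the 3 contrasts were adjusted by Benjamini-Hochberg over all tested genes. The fit was first tested on simulated data. Promoters were from RefSeq; figures were drawn with matplotlib 3.10.9. Genomic spans came from a reference table on build GRCr8, matched for 20633 genes (91.3%).

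The genes, role groups and lists were chosen with earlier results of these data known. The rule for naming genes gave values in every library for the 2 genes of highest mean in each role group, for every gene lowered and still raised, staying raised, below WKY or not raised in SHR, and up to 4 genes of each further list (2 of each marker list) with the smallest adjusted p in SHR minus WKY among those called; genes with another call named beside these were chosen after their values were seen. Alternatives were no rescaling, quantile and cyclic loess normalization, pseudocounts of 1 and 0.1, no filter or a filter at 1 FPKM, robust moderation, a fit to 6 libraries per contrast, a replicate block, leave-one-out fits and, added after the data were seen, removal of the trend with genomic span.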

Additional observations from a re-analysis of the deposited data

How the results depend on the processing

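Of the 29 genes called higher in SHR, 23 were called under all 20 alternatives, as were 21 of the 24 called between treated SHR and SHR and 6 of the 14 called between treated SHR and WKY, and no called difference changed its sign. Counts that moved most were those against WKY and the classes built on them: without the filter on low values 6 genes were higher and 1 lower in treated SHR than in WKY, 3 stayed raised and 3 were lowered and still raised; without rescaling 3 stayed raised; and with only the 6 libraries of the contrast 1 was lower in treated SHR than in WKY. The median was -0.53 for treated SHR minus SHR with a pseudocount of 1 and 0.33 for treated SHR minus WKY with one of 0.1. The cause of these shifts was not tested. Leaving out 1 library gave 24 to 30 genes higher in SHR, 20 to 24 lower in treated SHR than in SHR, 6 to 11 higher and 0 to 2 lower in treated SHR than in WKY, 12 to 16 returned, 2 to 6 stayed raised and 3 to 5 lowered and still raised, with medians of 0.72 to 0.85, -0.77 to -0.54 and 0.20 to 0.33.

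Some differences that passed no test changed sign. For treated SHR minus SHR, Irf8 was 0.02509 and Fcgr2a 0.0485 under quantile normalization, and 0.02505 and 0.0577 under cyclic loess; leaving out 1 library gave -0.29 to 0.00054 for Cd163, -0.28 to 0.0002025 for Coro1a, -0.26 to 0.0649 for Fcgr2a and -0.19 to 0.17 for Irf8. For treated SHR minus WKY, Stab1 and Siglec1 were 0.0067 and 0.0074 under cyclic loess, and leaving out 1 library gave -0.0464 to 0.23 for Aif1, -0.50 to 0.17 for Cd86, -0.0528 to 0.22 for Clec10a, -0.17 to 0.49 for Fcgr1a, -0.0725 to 0.24 for Fcgr2b, -0.10 to 0.14 for Siglec1 and -0.16 to 0.0685 for Stab1. Apart from leaving out libraries, the calls that ended in some setting were those of Cd163, F13a1 and Irf8 in SHR minus WKY, of Fcgr2b, Itgax and Laptm5 in treated SHR minus SHR, and of Cd14, Cd53, Cd68, Coro1a, F13a1, Irf8, Lgals3 and Mpeg1 in treated SHR minus WKY, with adjusted p-values of 0.05 to 0.0974. Calls were gained by Trem2, by Spi1 in treated SHR minus SHR with only the 6 libraries of the contrast (adjusted p = 0.0384) and by Itgb2 over WKY under cyclic loess (0.0394) and quantile normalization (0.043). With a pseudocount of 0.1, Cx3cr1 in SHR minus WKY was 2.75 and Gpnmb 1.80, so the order of these genes depends on it. A filter at 1 FPKM gave no value for Fcgr2a, Clec7a and Cd86.

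Deviations from the group means correlated at -0.062 to 0.083 across groups for equal replicate numbers and at -0.069 to 0.064 for others. Equal numbers did not stand out, but such correlations cannot decide whether samples were paired, since a link limited to some genes could be missed. Among the macrophage and myeloid genes, replicate 3 was most often highest in WKY, SHR and treated SHR (25, 20 and 18 genes). The library most often lowest was replicate 2 in WKY and replicate 1 in SHR and treated SHR. With the replicate block, 30 genes were higher in SHR, 23 lower in treated SHR than in SHR, and 10 higher and 3 lower in treated SHR than in WKY; 14 returned, 4 stayed raised and 5 were lowered and still raised. The block also called Cd68 lower in treated SHR than in SHR (adjusted p = 0.025) and ended the calls of Laptm5, Cd14 and Coro1a (0.0653, 0.0665 and 0.0702). Depth is unknown, so it cannot be said which low values, such as those of Cd86 and Cx3cr1 in WKY, rest on few fragments.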
